A study of Homo sapiens with 10 samples.

Results

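Histone lysine methyltransferases and demethylases are the enzymes that add methyl groups to lysines of the histone tails and take them off again. The set holds the 41 of 16734 genes in the deposited table whose symbol begins with KDM1 to KDM8, KMT2 to KMT5, SETD or SUV39H, or is NSD1, NSD2, NSD3, EHMT1 or EHMT2. KDM3A and 1 further gene were left out and are not reported here. The set has 15 demethylases and 26 methyltransferases. Poly(A) RNA was sequenced from MIA PaCa-2 cells, an established human pancreatic ductal adenocarcinoma line, kept for 24 h in 10 µM hydroxyprogesterone caproate (HPC, a synthetic progestin; 5 libraries) or in the same volume of its solvent DMSO (5 libraries). Both groups are the same unmodified line at 1 dose and 1 time.

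A methylated lysine is read according to its position. Methylation of H3K4 marks promoters and enhancers in use, H3K36 the bodies of transcribed genes, H3K9 and H3K27 silent chromatin, and H4K20 replication and chromatin compaction. The methyltransferases take the methyl group from S-adenosylmethionine. The KDM1 demethylases use a flavin cofactor, and the other KDM families use iron, oxygen and 2-oxoglutarate. The messenger RNA of an enzyme says nothing of its protein, its activity or the histone mark, none of which was measured here.

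The libraries held between 65851176 and 82218527 reads assigned to genes, as recovered from the FPKM values (fragments per kilobase, scaled to depth). A gene was tested with limma if 5 or more libraries had 1 FPKM or above, and it was called at a Benjamini-Hochberg adjusted p under 0.05 over all 9150 tested genes. The labels name the libraries biological replicates without giving culture days, so a p-value reflects how far these libraries varied, which may be technical. Mitochondrial genes held 1.56% to 1.82% of the reads in HPC libraries and 2.25% to 2.51% in DMSO libraries. The epithelial markers KRT8 and KRT18 were at 57.7 ± 2.41 and 150 ± 3.42 FPKM in HPC cells, against 51.8 ± 1.25 and 114 ± 3.98 FPKM in DMSO cells (SD, n = 5). KRT19 was at 10.1 ± 1.11 FPKM in HPC cells and 24.0 ± 1.69 FPKM in DMSO cells, and VIM, a mesenchymal marker, at 333 ± 9.71 FPKM in HPC cells and 695 ± 14.9 FPKM in DMSO cells. KRT7 was at 0.264 FPKM or less, and EPCAM and CDH1 at 0.0111 FPKM or less in every library of both groups. What part these shifts have in the results was not tested. The 8 measured markers of other cell types together stayed between 0.0139 and 0.0326 FPKM in HPC libraries and between 0.0728 and 0.114 FPKM in DMSO libraries. FPKM is a share of the library, so a change in RNA per cell and a change in the makeup of the culture cannot be told apart.

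Most of these genes changed with HPC, as most genes of the table did. Of the 32 members tested, 14 were called higher and 14 lower, or 87.5%, beside 87.7% of all tested genes, of which 42.9% were called higher and 44.8% lower. Those shares are 3922 and 4099 genes, and 2957 and 5015 when libraries were rescaled to the FPKM sum of genes outside the mitochondrial genome. The demethylases had 6 of 10 tested genes higher and 3 lower, with a median log2 fold change of 0.40. The methyltransferases had 8 of 22 tested genes higher and 11 lower, with a median of -0.11, beside a median of -0.01 over all tested genes. Of these, 4 of the higher and 1 of the lower act mainly on proteins other than histones or have no established histone activity. After the rescaling to the non-mitochondrial FPKM sum the demethylases had 5 higher and 4 lower and the methyltransferases 6 higher and 14 lower, beside 32.3% and 54.8% of all tested genes. After rescaling to non-mitochondrial reads instead, 31 of the 32 members kept their direction and call, and SETD2 was called lower (limma, adjusted p = 0.0348). There 3860 of all tested genes were higher and 4145 lower. At least 1.5-fold changes were found for 4 demethylases, all higher, and for 2 methyltransferases higher and 4 lower. That threshold was passed upwards by 16.9% and downwards by 20.3% of all tested genes. The groups did not overlap for 27 of the 32 members, 84.4%, beside 79.6% of all tested genes.

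The filter removed 9 members (KDM2B, KDM4C, KDM4D, KDM5B, KDM8, SETD1B, SETDB2, KMT5C and SETD4), whose mean levels lay between 0.167 and 1.05 FPKM in HPC cells and between 0.193 and 0.872 FPKM in DMSO cells. EHMT1, EHMT2 and KMT2C were under 1 FPKM in every HPC library and entered the test through their DMSO values. With no filter, all 41 members were tested. Then 7 of 15 demethylases were higher, 4 lower and 4 not called, with a median of 0.03, and 10 of 26 methyltransferases were higher, 13 lower and 3 not called, with a median of -0.11. In that fit 34 of the 41 members were called, 82.9%, beside 67.4% of the 16734 genes, 31.2% higher and 36.2% lower. These shares were not compared at matched expression level. The higher median of the demethylases in the filtered set was thus not found over all 15.

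The length behind a deposited FPKM bears on which genes passed. It was within 1% of the summed exons of all annotated transcripts of a gene, with shared exons counted repeatedly, for 76.3% of 15183 genes, and it was a median of 2.31 times the length of the merged exons. For KDM5B it was 144 kb, in a gene that spans 85.0 kb with 25.9 kb of merged exons, so the gene was under 1 FPKM with 7880 to 9545 reads in a library. Because of the fixed pseudocount of 0.1 FPKM, the length also moves the log2 fold change of a low gene, such as EHMT2 with -1.79 on merged exons and -1.70 as deposited, and levels between genes depend on it directly. Levels of different genes are therefore given below as RPKM over merged exons, reads per kilobase scaled to depth.

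On that scale, lysine demethylases were the most abundant members. In HPC cells the order began with KDM4A at 28.9 ± 1.50, KDM1A at 19.9 ± 0.219, KDM1B at 18.6 ± 0.533 and KDM3B at 17.3 ± 0.385 (SD, n = 5). In DMSO cells it began with KDM1A at 27.7 ± 0.620, KDM3B at 25.8 ± 0.655, KDM4A at 17.0 ± 0.727, NSD1 at 14.1 ± 0.179 and SETD1A at 13.8 ± 0.781, the last pair within their spread. KDM4D and KDM8 stood at the low end, at 0.492 ± 0.0549 and 0.540 ± 0.0666 in HPC cells and at 0.808 ± 0.246 and 0.624 ± 0.128 in DMSO cells. KDM6B ranked 12 of the 41 in HPC cells and 37 in DMSO cells, and KDM7A ranked 19 in HPC cells and 35 in DMSO cells. EHMT2 ranked 29 in HPC cells and 9 in DMSO cells.

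**Figure D1:**
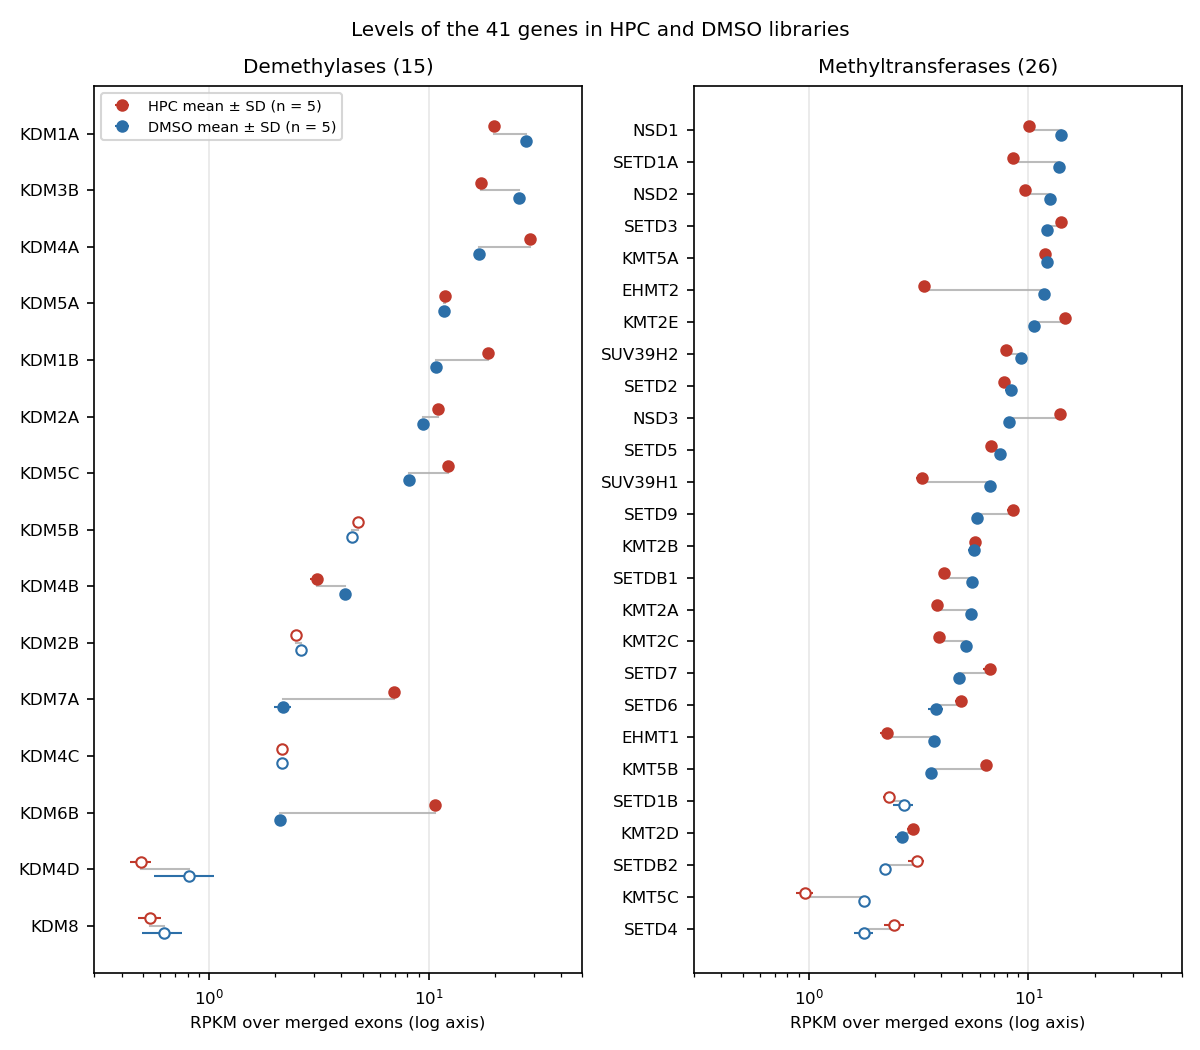
Level of each of the 41 genes, in RPKM over merged exons (log axis), as mean ± SD of 5 HPC libraries (red) and 5 DMSO libraries (blue). Genes run from high to low in DMSO, and open points are the 9 genes under the filter; the longest lines are those of KDM6B (10.7 in HPC, 2.10 in DMSO), EHMT2 (3.34 in HPC, 11.8 in DMSO) and KDM7A (6.93 in HPC, 2.17 in DMSO).

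The largest rises were those of KDM6B and KDM7A, both of which remove methyl groups from H3K27. KDM6B, also called JMJD3, lies at chr17:7839904-7854796 (GRCh38, plus strand). It had 5.67, 5.25, 5.00, 5.44 and 5.37 FPKM in HPC libraries, against 1.04, 1.13, 0.998, 1.07 and 1.03 FPKM in DMSO libraries. Every HPC library was high and every DMSO library low, with no overlap. The log2 fold change was 2.24 ± 0.0423 (SE), which is 4.72-fold (limma, adjusted p = 3.46e-14).

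KDM7A, which acts on H3K9 and H3K27, lies at chr7:140084746-140177035 (minus strand). It had 3.76, 3.82, 3.53, 3.80 and 3.44 FPKM in HPC libraries, against 1.13, 1.32, 1.14, 1.03 and 1.14 FPKM in DMSO libraries. The groups were again far apart, with a log2 fold change of 1.60 ± 0.0570 (3.02-fold, limma, adjusted p = 1.24e-11). No other demethylase reached these sizes.

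The 250 bases upstream of an annotated start are shown for the members with the largest change in each direction, here the demethylases KDM6B and KDM7A (RefSeq, GRCh38.p14, strand of the gene). The capitals mark ACGTG, the core of hypoxia response elements and of many E-boxes, where it occurs. KDM6B has 2 annotated RefSeq starts, and the window shown, chr17:7833967-7834216, is that of the first, which lies upstream of the gene start given above. The window before the second start is chr17:7839667-7839916 and adjoins that gene start. The window of KDM7A is chr7:140176984-140177233. Its part from 140176984 to 140177035 lies inside the gene coordinates given above.
KDM6B: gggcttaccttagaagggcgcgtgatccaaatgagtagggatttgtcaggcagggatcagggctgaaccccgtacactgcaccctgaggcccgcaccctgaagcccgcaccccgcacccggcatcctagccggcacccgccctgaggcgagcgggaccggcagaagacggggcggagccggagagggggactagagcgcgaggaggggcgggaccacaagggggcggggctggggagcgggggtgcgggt
KDM7A: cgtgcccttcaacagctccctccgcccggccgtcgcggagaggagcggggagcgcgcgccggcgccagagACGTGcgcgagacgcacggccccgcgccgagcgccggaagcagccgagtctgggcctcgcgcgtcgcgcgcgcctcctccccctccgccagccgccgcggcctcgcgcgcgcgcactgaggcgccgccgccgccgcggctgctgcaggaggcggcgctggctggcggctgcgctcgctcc
The window of KDM6B had 70.4% G and C with 21 CpG dinucleotides and none of the 6 motifs searched. Its second window had 50.4% G and C with 1 CpG dinucleotide, also without a motif. The window of KDM7A had 81.6% G and C with 50 CpG dinucleotides and 1 ACGTG.

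Demethylases of H3K4 changed in different directions. KDM1B (LSD2), at chr6:18155329-18223853, had 6.80, 6.89, 6.62, 7.16 and 6.77 FPKM in HPC libraries and 4.16, 4.21, 3.89, 3.87 and 3.73 FPKM in DMSO libraries. It was higher in every HPC library, by 0.77 ± 0.0372 on the log2 scale (limma, adjusted p = 2.49e-10). KDM1A (LSD1), the catalytic subunit of the CoREST repressor complex, was at 8.11 ± 0.0889 FPKM in HPC cells and 11.2 ± 0.252 FPKM in DMSO cells (SD, n = 5) and fell by 0.47 on the log2 scale.

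Among the KDM5 genes, whose products erase trimethylated H3K4, KDM5C (chrX:53191321-53225422) had 3.01, 3.24, 3.04, 2.87 and 2.87 FPKM in HPC libraries and 1.95, 2.01, 1.99, 2.03 and 1.96 FPKM in DMSO libraries. The groups did not overlap, and KDM5C was higher with HPC by 0.57 ± 0.0382 (limma, adjusted p = 7.45e-09). KDM5A had 7.82, 8.23, 7.92, 8.14 and 8.38 FPKM in HPC libraries and 7.65, 8.02, 8.07, 8.09 and 7.90 FPKM in DMSO libraries. These values overlapped, and the difference of 0.03 had a 95% interval of -0.03 to 0.09 (limma, adjusted p = 0.366). After rescaling to the non-mitochondrial FPKM sum, KDM5A was lower by a log2 fold change of -0.14 (limma, adjusted p = 6.48e-04). KDM5B, outside the filter, had 0.833 to 0.897 FPKM in HPC libraries and 0.783 to 0.821 FPKM in DMSO libraries, and was called higher by 0.09 when lengths were those of merged exons (limma, adjusted p = 0.0326).

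Demethylases of H3K9 and H3K36 held the most abundant member of the set in HPC cells. KDM4A, which acts on trimethylated H3K9 and H3K36, lies at chr1:43650158-43705515. It had 19.2, 19.7, 21.8, 21.0 and 20.7 FPKM in HPC libraries, against 11.8, 11.7, 11.4, 12.6 and 12.5 FPKM in DMSO libraries. All HPC values lay above all DMSO values, with a log2 fold change of 0.76 ± 0.0393 (limma, adjusted p = 4.78e-10). Of its 5172 merged exon bases, 2541 overlap AL451062.3 on the same strand or KDM4A-AS1 on the other, and which reads came from which gene cannot be told from the table.

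KDM4B, a paralogue of KDM4A, was at 1.36 ± 0.0903 FPKM in HPC cells and 1.82 ± 0.0557 FPKM in DMSO cells and fell by 0.39. KDM3B, which removes mono- and dimethylation from H3K9, lies at chr5:138352596-138437028. It had 5.94, 6.30, 6.06, 6.01 and 6.13 FPKM in HPC libraries, against 8.82, 8.89, 9.15, 9.07 and 9.40 FPKM in DMSO libraries. Every HPC library was low, and the log2 fold change was -0.57 ± 0.0272 (limma, adjusted p = 2.30e-10). KDM2A, which removes dimethylation from H3K36 and binds unmethylated CpG, was higher by 0.22, a call that was lost after rescaling to the non-mitochondrial FPKM sum (0.06, limma, adjusted p = 0.148). KDM2B, its paralogue, was not tested, with 0.761 to 0.827 FPKM in HPC libraries and 0.799 to 0.861 FPKM in DMSO libraries.

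EHMT2 and SUV39H1, both methyltransferases of H3K9, had the largest falls of the tested members. With no filter, 5 of the 6 genes of this substrate were called lower, with a median log2 fold change of -0.52, where 36.2% of all genes were lower. SETDB2, the sixth, did not pass the filter, while EHMT1 and EHMT2 passed it only through their DMSO values. In the fit on merged exon lengths, in which 86.7% of 10688 genes were called, 41.3% higher and 45.4% lower, the same 5 were lower and SETDB2 was higher by 0.46 (limma, adjusted p = 7.36e-06). Its values were 0.976 to 1.19 FPKM in HPC libraries and 0.681 to 0.788 FPKM in DMSO libraries, so the fall was not shared by every gene of this substrate.

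EHMT2 (G9a), which with its partner EHMT1 (GLP) sets mono- and dimethylation of H3K9, lies at chr6:31879759-31897687 (minus strand). It had 0.809, 0.777, 0.813, 0.822 and 0.851 FPKM in HPC libraries, against 2.85, 2.70, 3.02, 2.83 and 2.94 FPKM in DMSO libraries. All HPC libraries were low and the groups lay far apart. The log2 fold change was -1.70 ± 0.0407, a fold of 0.308 (limma, adjusted p = 2.60e-13), and 592 of its exon bases overlap EHMT2-AS1 on the other strand. EHMT1 (chr9:137618963-137870016) had 0.696, 0.732, 0.747, 0.805 and 0.816 FPKM in HPC libraries, against 1.24, 1.15, 1.29, 1.24 and 1.30 FPKM in DMSO libraries. It was lower in each HPC library, by a log2 fold change of -0.65 ± 0.0529 (limma, adjusted p = 6.12e-08).

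SUV39H1 (chrX:48695554-48709012), which trimethylates H3K9 in constitutive heterochromatin, had 1.53, 1.45, 1.53, 1.37 and 1.61 FPKM in HPC libraries, against 3.11, 2.88, 3.06, 3.24 and 2.93 FPKM in DMSO libraries. The groups did not overlap, and the log2 fold change was -0.98 ± 0.0469, a fold of 0.508 (limma, adjusted p = 2.32e-10). Its paralogue SUV39H2 fell by 0.21, to 2.30 ± 0.123 FPKM in HPC cells, against 2.67 ± 0.0484 FPKM in DMSO cells. SETDB1, which is recruited by KRAB zinc finger proteins through TRIM28, fell by 0.39, to 1.15 ± 0.0413 FPKM in HPC cells, against 1.54 ± 0.0861 FPKM in DMSO cells. An antisense gene overlaps 685 exon bases of SUV39H1 and CERS2 overlaps 948 of SETDB1.

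The upstream windows of the H3K9 methyltransferases with the largest falls are chr6:31897699-31897948 for EHMT2 and chrX:48696484-48696733 for the second annotated start of SUV39H1. That SUV39H1 window is upstream of the second start only and lies inside the gene coordinates given above. The window before the first start, chrX:48695304-48695553, adjoins the gene start and is not shown. Capitals mark ACGTG on either strand in EHMT2, where both matches form the palindrome CACGTG, and CCAAT, the box bound by NF-Y, in SUV39H1.
EHMT2: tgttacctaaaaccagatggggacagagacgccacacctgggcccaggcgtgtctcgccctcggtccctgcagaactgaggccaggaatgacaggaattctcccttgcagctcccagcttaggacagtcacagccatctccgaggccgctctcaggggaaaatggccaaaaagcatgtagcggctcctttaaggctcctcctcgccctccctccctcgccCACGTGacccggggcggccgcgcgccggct
SUV39H1: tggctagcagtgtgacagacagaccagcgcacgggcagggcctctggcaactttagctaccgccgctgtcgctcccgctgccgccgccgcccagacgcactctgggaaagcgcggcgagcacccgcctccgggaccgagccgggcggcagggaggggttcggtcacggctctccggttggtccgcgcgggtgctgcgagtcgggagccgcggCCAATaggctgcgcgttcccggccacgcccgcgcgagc
The window of EHMT2 had 63.2% G and C with 16 CpG dinucleotides, and that of SUV39H1 had 73.6% with 35. The window of the first SUV39H1 start had 56.0% with 5 and none of the motifs.

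**Figure D2:**
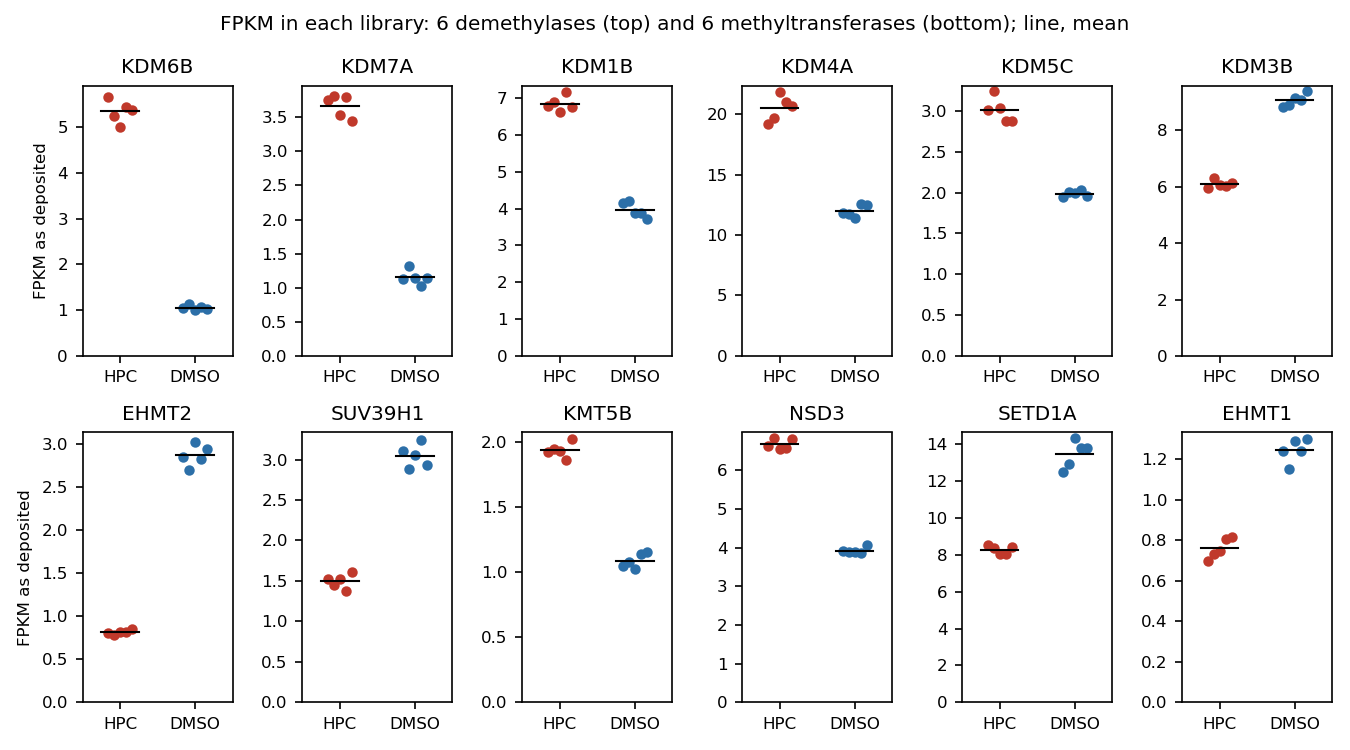
Deposited FPKM in each library for the 6 called demethylases (top) and the 6 called methyltransferases (bottom) with the largest change, 5 HPC libraries (red) left of 5 DMSO libraries (blue), with the group mean as a line and each axis from 0. In none of the 12 genes do the groups overlap; KDM6B averages 5.35 in HPC and 1.05 in DMSO, and EHMT2 averages 0.815 in HPC and 2.87 in DMSO.

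Methyltransferases of H3K4 had 2 of 6 tested genes higher and 3 lower, where 42.9% and 44.8% of all tested genes were. Of these 3, KMT2C was under 1 FPKM in every HPC library and entered the test through its DMSO values. With no filter KMT2C and SETD1B were called lower at -0.36 and -0.20 (limma, adjusted p = 1.44e-05 and 0.0274). In that fit 36.2% of all genes were lower. SETD1A (chr16:30957294-30984664), a catalytic subunit of the COMPASS complexes that trimethylate H3K4 at promoters, had 8.54, 8.34, 8.04, 8.01 and 8.44 FPKM in HPC libraries. In DMSO libraries it had 12.5, 12.9, 14.3, 13.8 and 13.8 FPKM. The HPC libraries were low without overlap, at a log2 fold change of -0.69 ± 0.0382 (limma, adjusted p = 9.86e-10). SETD1B, the alternative subunit, did not pass the filter and was at 0.746 ± 0.0448 FPKM in HPC cells and 0.872 ± 0.0909 FPKM in DMSO cells, with overlapping values. It was called lower at -0.21 on merged exon lengths (limma, adjusted p = 0.0153).

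The MLL genes KMT2A to KMT2D did not move together. KMT2A (MLL1), which binds menin, fell by 0.49, and KMT2C, which monomethylates H3K4 at enhancers, fell by 0.36. KMT2D, the paralogue of KMT2C, was called higher by 0.16 (limma, adjusted p = 0.0113), with overlapping groups of 2.35 to 2.73 FPKM in HPC libraries and 2.07 to 2.47 FPKM in DMSO libraries. It was at -0.0042 after rescaling to the non-mitochondrial FPKM sum (limma, adjusted p = 0.941). KMT2B had 4.53, 4.36, 4.36, 4.58 and 4.59 FPKM in HPC libraries and 4.14, 4.17, 4.71, 4.60 and 4.56 FPKM in DMSO libraries. The values overlapped, and the difference of 0.02 had a 95% interval of -0.07 to 0.10 (limma, adjusted p = 0.699), and KMT2B was lower by a log2 fold change of -0.15 under that rescaling (limma, adjusted p = 0.00516). Of the exon bases of KMT2A, 5916 overlap other annotated genes. SETD7, which monomethylates H3K4 and several proteins other than histones, rose by 0.45, to 5.10 ± 0.339 FPKM in HPC cells, against 3.71 ± 0.151 FPKM in DMSO cells.

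Among the methyltransferases of H3K36, the NSD genes, which set dimethylation, split. NSD3 (chr8:38269697-38382272) had 6.62, 6.83, 6.56, 6.59 and 6.82 FPKM in HPC libraries, against 3.91, 3.90, 3.88, 3.86 and 4.07 FPKM in DMSO libraries. It was high in every HPC library, by a log2 fold change of 0.75 ± 0.0269 (limma, adjusted p = 1.25e-11). NSD1 was at 3.64 ± 0.110 FPKM in HPC cells and 5.12 ± 0.0648 FPKM in DMSO cells and fell by 0.48. NSD2 was at 2.09 ± 0.0811 FPKM in HPC cells and 2.72 ± 0.0779 FPKM in DMSO cells and fell by 0.37.

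SETD2, the enzyme that trimethylates H3K36 behind the polymerase, had 1.96, 2.03, 1.94, 2.03 and 2.01 FPKM in HPC libraries and 2.02, 2.00, 2.18, 2.26 and 2.19 FPKM in DMSO libraries. The groups overlapped. The log2 fold change of -0.09, with a 95% interval of -0.18 to -0.0014, was not called (limma, adjusted p = 0.0535). SETD2 was called lower on merged exon lengths (limma, adjusted p = 0.0417) and when limma's voom was run on the recovered reads (adjusted p = 0.0194).

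Methyltransferases of H4K20 differed from each other. KMT5B (chr11:68154863-68213828), which adds the further methyl groups, had 1.92, 1.94, 1.93, 1.86 and 2.02 FPKM in HPC libraries, against 1.05, 1.08, 1.02, 1.14 and 1.15 FPKM in DMSO libraries. The groups did not overlap, and it was higher by 0.78 ± 0.0427 (limma, adjusted p = 9.65e-10). KMT5A, which sets the monomethylation that rises in the cell cycle's late phases, had 4.35, 4.50, 4.64, 4.83 and 4.74 FPKM in HPC libraries and 4.97, 4.70, 4.48, 4.77 and 4.62 FPKM in DMSO libraries. These overlapped, with a difference of -0.03 and a 95% interval of -0.11 to 0.05 (limma, adjusted p = 0.462), and KMT5A was called lower at -0.19 after rescaling to the non-mitochondrial FPKM sum (limma, adjusted p = 2.86e-04). KMT5C, a paralogue of KMT5B outside the filter, had 0.257 to 0.324 FPKM in HPC libraries and 0.528 to 0.611 FPKM in DMSO libraries. It was lower by a log2 fold change of -0.84 on merged exon lengths (limma, adjusted p = 7.21e-08), opposite to KMT5B.

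The remaining SET-domain genes act mainly on proteins other than histones or have no established histone activity, and 4 of 5 tested were higher, where 42.9% of all tested genes were. KMT2E, for which no methyltransferase activity is established, was at 4.01 ± 0.0520 FPKM in HPC cells and 2.90 ± 0.0729 FPKM in DMSO cells, higher by 0.46. SETD9 was higher by 0.52. SETD6, which methylates the NF-κB subunit RELA, was higher by 0.35, and 1086 of its 5078 merged exon bases overlap CNOT1 on the other strand. SETD3, the histidine methyltransferase of actin, was higher by 0.20 and SETD5 fell by 0.14. SETD3 was not called after rescaling to the non-mitochondrial FPKM sum (0.03, limma, adjusted p = 0.345), nor SETD5 after quantile normalization (-0.02, limma, adjusted p = 0.578). SETD4, outside the filter, had 0.575 to 0.742 FPKM in HPC libraries and 0.421 to 0.523 FPKM in DMSO libraries, without overlap.

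The other untested demethylases were low. KDM4C had 0.709 to 0.758 FPKM in HPC libraries and 0.682 to 0.776 FPKM in DMSO libraries, which overlapped. KDM4D had 0.162 to 0.204 FPKM in HPC libraries and 0.247 to 0.470 FPKM in DMSO libraries, without overlap. With no filter KDM4D was called lower at -0.48 (limma, adjusted p = 0.00658), where 36.2% of all genes were lower. KDM8 had 0.135 to 0.188 FPKM in HPC libraries and 0.131 to 0.236 FPKM in DMSO libraries, with overlap.

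**Figure D3:**
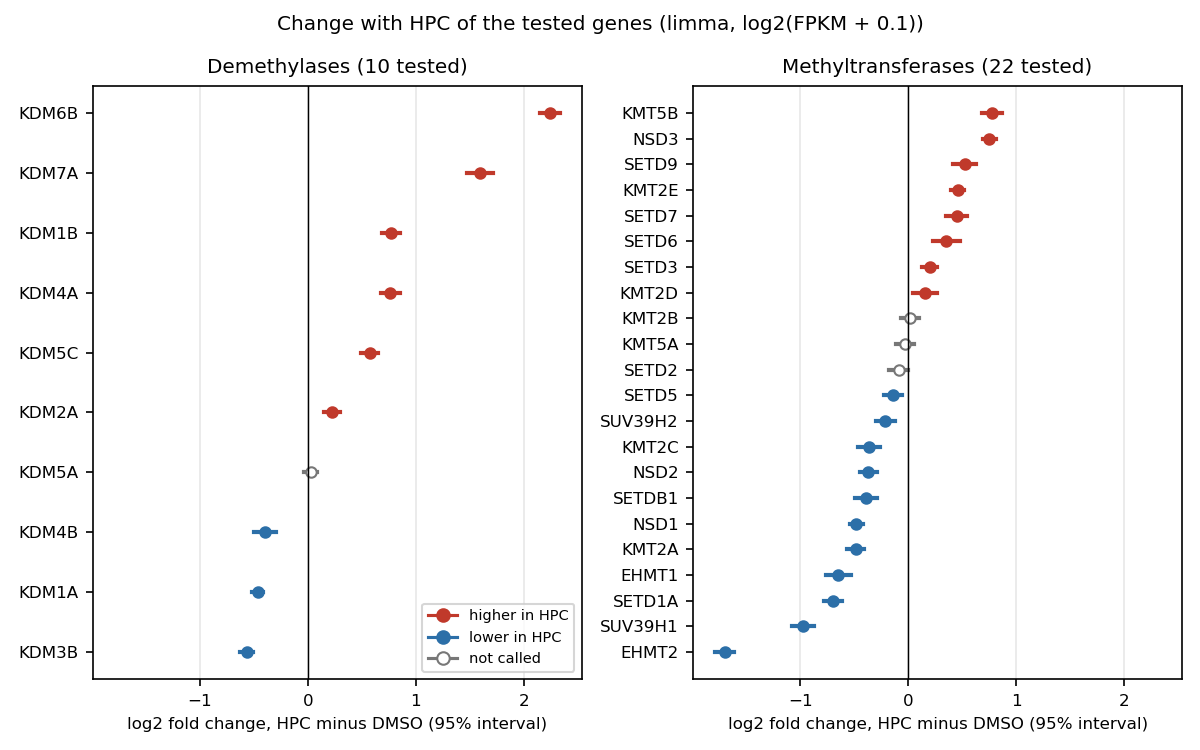
Log2 fold change, HPC minus DMSO, of the 10 demethylases and 22 methyltransferases tested, with 95% intervals from limma on log2(FPKM + 0.1). Red points are called higher, blue points lower and open grey points not called; the range runs from 2.24 for KDM6B to -1.70 for EHMT2, and 4 genes (KDM5A, KMT2B, KMT5A and SETD2) are not called.

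Since paralogues differed in direction, their ratio within each library was compared. Apart from the pseudocount, a ratio within a library does not depend on the scaling between libraries. All 15 pairs of tested genes within the subfamilies were taken, a comparison added with the data in view. In an exact permutation test over the 252 assignments of the libraries (two-sided, smallest possible p = 0.00794), all 15 pairs had an adjusted p under 0.05 after Benjamini-Hochberg adjustment. In 13 pairs the 5 HPC ratios and the 5 DMSO ratios did not overlap, each with an exact adjusted p = 0.00916. Most ratios of any 2 tested genes separated the groups too: over all 41856675 pairs of tested genes, 79.2% did not overlap and 86.6% had an unadjusted exact p under 0.05. The counts are therefore no trait of paralogues, and the sizes are given pair by pair. For KMT2B over KMT2D and NSD1 over NSD2 the ratios overlapped.

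KDM1A transcripts were 1.02 to 1.12 times those of KDM1B in HPC libraries and 2.39 to 2.81 times in DMSO libraries, per kilobase of merged exons. The log2 ratio differed by -1.24. NSD1 over NSD3 was 0.700 to 0.759 in HPC libraries and 1.67 to 1.79 in DMSO libraries, so the more abundant of the pair was NSD3 in HPC cells and NSD1 in DMSO cells. NSD2 over NSD3 was 0.663 to 0.742 in HPC libraries and 1.48 to 1.61 in DMSO libraries. With the deposited lengths its mean log2 ratio was -1.64 in HPC libraries and -0.51 in DMSO libraries. Which of NSD2 and NSD3 was more abundant in DMSO cells thus depends on the length used. KDM4A over KDM4B was 8.16 to 10.5 in HPC libraries and 3.90 to 4.53 in DMSO libraries.

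Within the pair that forms the GLP and G9a heterodimer, EHMT1 over EHMT2 was 0.625 to 0.712 in HPC libraries and 0.310 to 0.322 in DMSO libraries. Both transcripts fell, EHMT2 further. SUV39H1 over SUV39H2 was 0.367 to 0.441 in HPC libraries and 0.688 to 0.752 in DMSO libraries on merged exons. With the deposited lengths its mean log2 ratio was -0.59 in HPC libraries and 0.18 in DMSO libraries, so the order in DMSO cells depends on the length. KMT5A over KMT5B was 1.77 to 2.03 in HPC libraries and 3.12 to 3.68 in DMSO libraries. The smallest differences in the log2 ratio were -0.11 for NSD1 over NSD2, -0.13 for KMT2A over KMT2C and -0.14 for KMT2B over KMT2D.

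**Figure D4:**
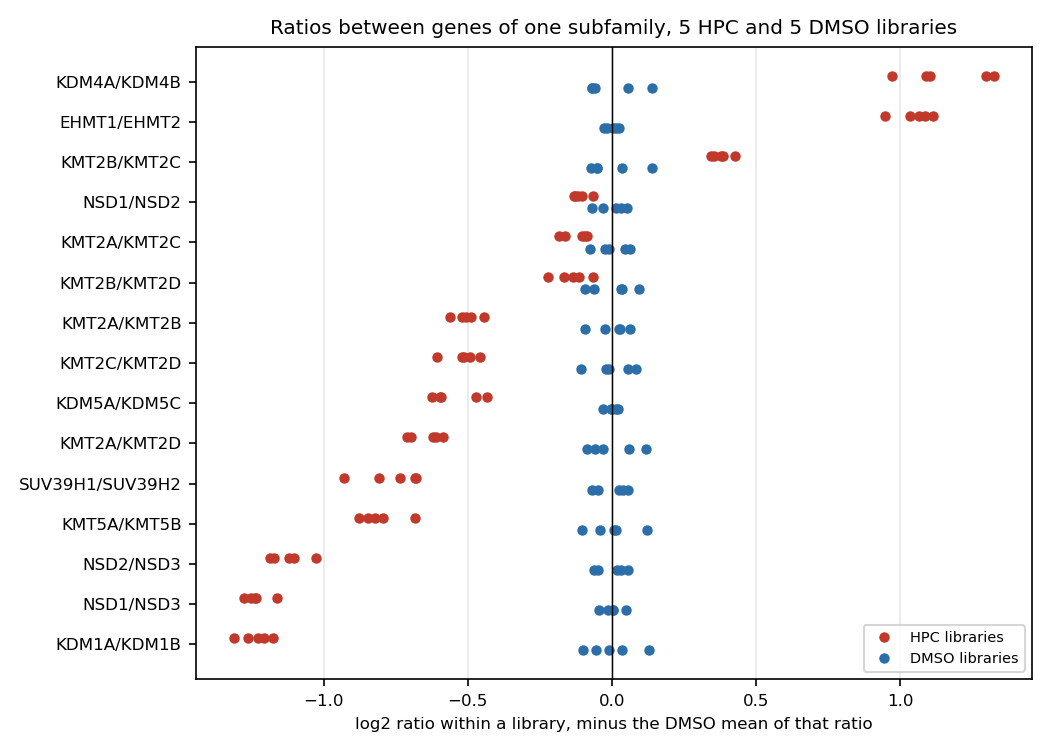
Log2 ratio of the first gene over the second within each library, minus the mean of that ratio in DMSO libraries, for 15 pairs in 5 HPC libraries (red) and 5 DMSO libraries (blue). The ratio KDM1A/KDM1B differs by -1.24 and KDM4A/KDM4B by 1.16, while for KMT2B/KMT2D and NSD1/NSD2 the groups overlap.

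Summed over all members, demethylase transcripts were at 151 ± 1.33 in HPC cells and 129 ± 1.19 in DMSO cells, in RPKM over merged exons (SD, n = 5). Methyltransferase transcripts summed to 170 ± 1.80 in HPC cells and 182 ± 3.37 in DMSO cells. That sum includes the 6 SET-domain genes that act mainly on proteins other than histones or have no established histone activity. With the deposited lengths those 6 rose, from 12.1 ± 0.234 FPKM in DMSO cells to 15.2 ± 0.247 FPKM in HPC cells. All 26 methyltransferases then summed to 72.6 ± 1.65 FPKM in DMSO cells and 67.6 ± 0.486 FPKM in HPC cells. On merged exons, the ratio of demethylases to all methyltransferases was 0.889 ± 0.0111 in HPC cells and 0.712 ± 0.0115 in DMSO cells, without overlap. It was 1.02 ± 0.0133 in HPC cells and 0.765 ± 0.0150 in DMSO cells with the deposited lengths. Leaving out KDM4A and KDM6B, which rose in these data, lowered this difference, as it must. KDM1A and KDM3B, which fell, were kept. Without KDM4A the ratio was 0.719 ± 0.0129 in HPC cells and 0.619 ± 0.0125 in DMSO cells, and without KDM4A and KDM6B it was 0.656 ± 0.0126 in HPC cells and 0.607 ± 0.0121 in DMSO cells. Without that pair the demethylases summed to 111 ± 1.28 in HPC cells and 110 ± 1.05 in DMSO cells. The 6 H3K9 methyltransferases summed to 22.6 to 24.7 RPKM over merged exons in HPC libraries and 38.0 to 39.9 in DMSO libraries. Among them EHMT2 was at 3.34 in HPC cells and 11.8 in DMSO cells. Other substrates were summed in FPKM with the deposited lengths. H3K4 methyltransferases were lower in HPC cells (23.6 ± 0.426, against 28.1 ± 1.27 in DMSO cells). SETD1A alone (8.27 ± 0.239, against 13.5 ± 0.759) fell by more FPKM than this sum. H3K9 demethylases were lower too (6.27 ± 0.146, against 9.37 ± 0.209). Demethylases of both H3K9 and H3K36 were higher (22.6 ± 1.02, against 14.6 ± 0.468). On this scale the other histone substrates also had higher means in HPC cells. For H3K36 methyltransferases (14.4 ± 0.274, against 13.9 ± 0.199) the direction depended on the lengths. On merged exons NSD3 was at 13.9 in HPC cells and 8.18 in DMSO cells, and NSD1 at 10.1 and 14.1. NSD2 was at 9.67 and 12.6 and SETD2 at 7.76 and 8.29, so these genes together were lower in HPC cells.

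Genes whose products work with these enzymes were counted from lists chosen with earlier results of these data known, beside 42.9% higher and 44.8% lower among all tested genes. The shared subunits and partners of the COMPASS complexes had 4 of 14 tested genes higher and 9 lower, and 4 of all 15 higher and 10 lower with no filter, where 31.2% and 36.2% of all genes were. MEN1, menin, was at 0.791 ± 0.0736 FPKM in HPC cells and 1.83 ± 0.0381 FPKM in DMSO cells, and PAGR1, a subunit of the KMT2C and KMT2D complexes, at 5.73 ± 0.564 FPKM in HPC cells and 10.4 ± 0.188 FPKM in DMSO cells. Their log2 fold changes were -1.12 ± 0.0555 and -0.85 ± 0.0542 (limma, adjusted p = 3.32e-10 and 4.50e-09). MEN1 was under 1 FPKM in every HPC library and entered the test through its DMSO values.

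Partners of KDM1A in CoREST-type complexes had 2 of 11 genes higher and 7 lower, with or without the filter. Of the 7, RCOR2 and GSE1, named for this reason after their values were seen, were under 1 FPKM in every HPC library and entered the filtered test through their DMSO values. HDAC1, a histone deacetylase of the complex, was at 11.2 ± 0.242 FPKM in HPC cells and 32.9 ± 0.539 FPKM in DMSO cells, a log2 fold change of -1.54 ± 0.0229 (limma, adjusted p = 5.07e-15). ZMYM3, a zinc finger subunit, changed by -1.53 ± 0.0467. The 2 higher genes were RCOR1, the CoREST scaffold, and HDAC2, the paralogue of HDAC1 on the same list, both named after their values were seen. RCOR1 was at 20.9 ± 0.330 FPKM in HPC cells and 17.4 ± 0.542 FPKM in DMSO cells, a log2 fold change of 0.26 ± 0.0255 (limma, adjusted p = 3.67e-07). HDAC2 was at 9.30 ± 0.256 FPKM in HPC cells and 8.89 ± 0.0752 FPKM in DMSO cells, a log2 fold change of 0.06 ± 0.0251 (limma, adjusted p = 0.0321). The HDAC2 call reversed to -0.10 (adjusted p = 0.00240) when libraries were scaled to the non-mitochondrial FPKM sum. It was lost with TPM rescaling (adjusted p = 0.229), with scaling to non-mitochondrial reads (adjusted p = 0.0655), with the replicate block (adjusted p = 0.0600) and without any 1 of 6 single libraries, DMSO replicates 3, 4 and 5 and HPC replicates 3, 4 and 5 (adjusted p between 0.0503 and 0.0737).

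Partners and readers of H3K9 methylation had 1 of 9 tested genes higher and 7 lower, with a median of -0.39. CBX3 and CBX1, which encode the HP1 gamma and HP1 beta proteins that bind methylated H3K9, changed by -0.73 ± 0.0336 and -0.66 ± 0.0348. A list of lysine methyltransferases and demethylases with other symbols, and of related genes, had 7 of 13 tested genes higher and 6 lower. With no filter these were 7 and 6 of all 15. The list includes JMJD6, RIOX1 and RIOX2, called higher, and HIF1AN, called lower, which are not established histone lysine demethylases. These were named after their values were seen. On this list SMYD3 was at 0.485 ± 0.0845 FPKM in HPC cells and 1.60 ± 0.108 FPKM in DMSO cells. It changed by -1.55 ± 0.0865 and also entered the test through its DMSO values. JMJD1C, a relative of the KDM3 demethylases, was at 5.04 ± 0.210 FPKM in HPC cells and 2.33 ± 0.0960 FPKM in DMSO cells, a change of 1.08 ± 0.0387.

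Genes that supply or clear S-adenosylmethionine and 2-oxoglutarate had 2 of 10 tested genes higher and 6 lower, and 2 of all 11 higher and 7 lower with no filter. IDH1, which makes 2-oxoglutarate in the cytosol, was at 39.1 ± 1.15 FPKM in HPC cells and 18.4 ± 0.502 FPKM in DMSO cells. IDH2, its mitochondrial counterpart, was at 5.84 ± 0.212 FPKM in HPC cells and 11.2 ± 0.310 FPKM in DMSO cells. Their log2 fold changes were 1.08 ± 0.0271 and -0.93 ± 0.0312 (limma, adjusted p = 4.00e-13 and 6.37e-12). MAT2A, which makes S-adenosylmethionine and was chosen after its values were seen, differed by 0.02 ± 0.0239 and was not called (limma, adjusted p = 0.504). The metabolites were not measured.

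The upstream windows of the members were rich in CpG. RefSeq entries of GRCh38.p14 were matched for 39 of the 41 genes and gave 56 windows from 250 bases before to 50 bases after a start. Their median content of G and C was 69.2%, with 29.5 CpG dinucleotides, beside 58.7% and 14 over all 35116 windows of the table. The 20 windows of genes called higher had medians of 69.3% and 28, and the 20 of genes called lower 74.2% and 34.5.

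The 6 motifs were searched on both strands. ACGTG was in 21.4% of the members' windows and in 21.4% of all windows, and CCAAT in 30.4% of the members' windows and 34.6% of all. TTTGAA, part of the cell cycle CHR element, was in 7.14% of the members' windows and 15.2% of all, and TGACGT, part of the cAMP response element, in 3.57% of the members' windows and 7.98% of all. TTGCATC, part of the C/EBP-ATF composite site, was in 1.79% of the members' windows and 2.40% of all, and GCGCGAA, an E2F-like site, in 0 of the members' windows and 2.24% of all. ACGTG was found in 4 of the 20 windows of genes called higher and in 6 of the 20 of genes called lower. These letters are a description of the windows, not binding sites.

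The genes are also long. The tested members had a median merged exon length of 8979 bases and a median span of 75076 bases, beside 4936 and 30764 bases over all tested genes. Over the 32 tested members, the log2 fold change had a Spearman correlation of -0.147 with exon length and -0.0982 with span, given as a description, since genes of the same libraries are not independent. Over 9145 tested genes the values were -0.0359 and -0.0739.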

How the data were processed

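RNA of MIA PaCa-2 cells was compared between 5 HPC and 5 DMSO libraries, grouped by the labels. Per the submitters' processing notes, the build was GRCh38.p13 and the tools included STAR 2.7.7a, fastp 0.23.2 and edgeR; their roles are not named. The authors deposited FPKM for 16734 genes in 1 table; no label or header names the read counter, annotation or strand setting. Reads were recovered from the FPKM steps: all 15208 genes above 0 in at least 3 libraries gave whole reads within 0.0001 of a read. Genes on the mitochondrial chromosome were taken by gene ID, and 344 genes without a symbol were named by ID.

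Values were tested as log2(FPKM + 0.1), on which the change of a low gene is understated, with limma 3.58.1 in R 4.3.3 (trend and robust options, two-sided, Benjamini-Hochberg over all genes tested) for genes at 1 FPKM or above in 5 or more libraries. Intervals are at 95% and cover the spread between libraries. Coordinates and exons are from GENCODE 29 on GRCh38. Chi-square per degree of freedom between the reads of 2 libraries in a group was 13.2 to 32.0, so none was taken for a copy.

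Values in every library are given for the 6 called members of each class with the largest change, the most abundant member of each class by FPKM and every tested member not called; other members are given by range, mean or change. For partner lists the 2 called genes with the largest change are named, and others are said to be chosen later. The members and lists were chosen with earlier results of these data known. The fits on merged exon lengths and on non-mitochondrial reads, the paralogue ratios and the summed ratios were added after seeing the data. Alternatives changed the pseudocount, filter, scaling, test, block, threshold and libraries. The procedure was tested on simulated data with 8791 genes tested and 50 genes changed at each of 1.25-, 1.5-, 2- and 4-fold. It recovered 92%, 98%, 96% and 100% of them, and 14 of its 207 calls were false. Far fewer genes were changed there than the 87.7% called in these data, so it does not cover that setting. Computations used matplotlib 3.10.9, SciPy 1.17.1, pandas 2.3.3 and NumPy 2.4.6 in Python 3.11.15.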

Additional observations from a re-analysis of the deposited data

Results flagged for a closer look

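In 82 groups of 5 libraries checked for a library apart from the rest by Dixon's ratio, where chance gives about 1 group in 20, 3 were found. KDM4D had 0.470 FPKM in DMSO replicate 2, above 0.247 to 0.289 FPKM in the other DMSO libraries (ratio 0.812). KMT2E had 3.92 FPKM in HPC replicate 3, below 4.03 to 4.04 FPKM in the other HPC libraries (ratio 0.923). NSD3 had 4.07 FPKM in DMSO replicate 5, above 3.86 to 3.91 FPKM in the other DMSO libraries (ratio 0.754). The calls of KMT2E and NSD3 were the same without any single library. KDM4D was not tested at the filter used.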

How the results depend on the processing

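Of 32 tested members, 24 kept their direction and call under every alternative pseudocount, filter, scaling, length, test, block and left-out library in which they were tested, and 661 of 680 such values did. Of the 28 called members, 27 passed an adjusted p of 0.01 and 10 passed 1.5-fold. Leaving out 1 library at a time, the demethylases kept 6 higher and 3 lower, the methyltransferases 8 higher and 11 to 12 lower, with 3858 to 3908 of all genes higher and 4037 to 4087 lower. The median of the demethylases was 0.29 with a pseudocount of 1 FPKM, 0.0273 with no filter, 0.37 after TPM rescaling, 0.23 after rescaling to the non-mitochondrial sum, 0.44 after quantile normalization and 0.093 on merged exon lengths. That of the methyltransferases was -0.27 after the non-mitochondrial sum and -0.0269 after quantile normalization. The median of all genes was -0.0423 after TPM rescaling, -0.18 after the non-mitochondrial sum, -0.0003 after quantile normalization, -0.0236 after rescaling to non-mitochondrial reads and -0.0346 on merged exon lengths. With at least 5 FPKM the medians were 0.0273 for demethylases, -0.48 for methyltransferases and 0.0209 for all genes, and the calls were 2 demethylases higher and 2 lower, 1 methyltransferase higher and 2 lower, with 1969 genes higher and 1836 lower; fewer genes were tested there. At 1.5-fold, 0 demethylases were lower, 2 methyltransferases higher and 4 lower, with 1547 genes higher and 1861 lower.

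The non-mitochondrial sum gave 2957 genes higher and 5015 lower, against 3922 and 4099. Mitochondrial genes held 13.8% to 15.9% of the FPKM in HPC libraries and 21.9% to 23.8% in DMSO libraries, but 1.56% to 1.82% of the reads in HPC libraries and 2.25% to 2.51% in DMSO libraries, and the rescaling to reads moved little. Under that sum KDM5A was -0.14 and KMT2B -0.15, both called lower, KMT2D was -0.0042, SETD2 and KMT5A were called lower, and KDM2A and SETD3 were no longer called. KDM5A was -0.0012 and KMT2B -0.0114 after TPM rescaling, and KMT2B was -0.0072 without DMSO replicate 1 and -0.0041 without DMSO replicate 2, in a range of -0.0072 to 0.0384 over all libraries left out. SETD2 was called lower in 8 of the alternatives, without DMSO replicate 1 and without DMSO replicate 2 among them, and SETD5 was not called after quantile normalization. The difference in the ratio of summed levels, HPC minus DMSO, was 0.177 on merged exon lengths, 0.252 on deposited lengths, 0.10 without KDM4A and 0.049 without KDM4A and KDM6B. Where no construction shows it, the cause was not tested. Same-numbered libraries of the 2 groups correlated at -0.0593 to 0.199, and 2 of 5 matched their own number best, so the numbers were not taken as pairs; with the replicate block 3892 genes were higher and 4077 lower, and no member's call changed.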
